A study of Mus musculus with 46 samples.

Results

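The genes described are the aminoacyl-tRNA synthetases, 37 genes picked by symbol out of the 55487 genes in each deposited table. Of these, 21 encode enzymes of the cytosol and 16 encode enzymes of the mitochondrion, whose symbols end in 2. A synthetase joins an amino acid to the transfer RNA that carries it into protein, so every act of translation in the cytosol or the mitochondrion draws on one. The mitochondrial enzymes are encoded in the nucleus, made in the cytosol and imported, and most amino acids have a separate enzyme for each compartment. Gars and Kars, which charge glycine and lysine, serve both compartments and are counted here with the cytosolic enzymes. Transcripts of many cytosolic synthetases are known to rise with the transcription factor ATF4 when amino acids are short or stress pathways are active, and those of the mitochondrial enzymes are less tied to it.

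RNA was sequenced in 46 mouse libraries in 11 groups, from islets, the hormone-secreting cell clusters of the pancreas, and from liver. Tfam encodes the factor that packages and transcribes mitochondrial DNA, Clec16a a regulator of mitophagy, and Mfn1 and Mfn2 the mitofusins that fuse mitochondria. The islets came from Tfam control (5 female and 3 male libraries) and Tfam KO mice (4 female and 2 male), and from Clec16a control and Clec16a KO mice on diets given as RFD (4 and 4) and HFD (6 and 5). The livers were control (6), Mfn DKO (4) and Tfam KO (3), with descriptions that carry the letters AAV. The labels do not name the Cre driver, the alleles, the age of the mice or what the controls carry, so the cells in which a gene was deleted are not known from them. Islets were cultured overnight before RNA was taken and livers were frozen. Sex is labelled in the Tfam islets only. In bulk RNA, fewer cells of a type and less RNA per cell cannot be told apart.

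Sequences before the transcription start were examined because many members of the cytosolic set were called higher in Tfam KO islets and in Tfam KO livers. RefSeq promoter windows (build GRCm38.p6, 250 bases before to 50 after the start) were found for 28 members, 14 of each set. The motif TGATGNAA, the core that C/EBP and ATF proteins share, was looked for on both strands. It occurred in the windows of 5 of the 14 cytosolic members, Aars, Gars, Iars, Tars and Yars, in those of 0 of the 14 mitochondrial members, and in 3.97% of all 32851 windows of this length. A match is a run of letters, and whether a factor binds there was not measured. Of the 5 with the motif, Gars and Yars were called higher in 2 of the 5 comparisons with controls described below. Aars and Iars were called in 1 and Tars in 0. No window was found for Cars, Hars, Lars, Nars, Rars, Vars and Wars, and all of these but Hars were called higher at least once. The 5 windows with the motif are shown from 130 bases before the start, on the strand of the gene, with each match in capitals. Those of Eprs and Sars follow, the cytosolic members with the smallest adjusted p in Tfam KO islets and in Tfam KO livers, where the window held no match.
Aars, plus strand, chr8:111033712-111033861: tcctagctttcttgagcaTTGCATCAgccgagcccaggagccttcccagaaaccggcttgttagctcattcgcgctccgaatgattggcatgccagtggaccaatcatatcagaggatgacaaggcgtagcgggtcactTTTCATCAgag
Gars, plus strand, chr6:55037871-55038020: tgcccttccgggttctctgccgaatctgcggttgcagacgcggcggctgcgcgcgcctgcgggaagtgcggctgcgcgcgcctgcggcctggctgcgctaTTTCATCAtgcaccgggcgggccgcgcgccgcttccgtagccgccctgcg
Iars, plus strand, chr13:49682000-49682149: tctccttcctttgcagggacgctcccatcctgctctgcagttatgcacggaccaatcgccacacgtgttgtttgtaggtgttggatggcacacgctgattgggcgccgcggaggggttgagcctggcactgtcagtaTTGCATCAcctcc
Tars, minus strand, chr15:11399639-11399788: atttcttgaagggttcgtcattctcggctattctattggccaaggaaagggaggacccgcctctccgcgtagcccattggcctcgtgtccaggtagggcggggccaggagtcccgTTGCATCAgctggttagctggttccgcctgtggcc
Yars, plus strand, chr4:129189773-129189922: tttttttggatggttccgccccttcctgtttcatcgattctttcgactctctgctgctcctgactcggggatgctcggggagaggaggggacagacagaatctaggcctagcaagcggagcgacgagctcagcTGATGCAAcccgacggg
Eprs, plus strand, chr1:185362914-185363063: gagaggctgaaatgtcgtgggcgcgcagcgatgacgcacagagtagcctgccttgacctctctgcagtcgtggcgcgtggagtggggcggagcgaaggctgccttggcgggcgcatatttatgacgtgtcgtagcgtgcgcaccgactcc
Sars, minus strand, chr3:108445240-108445389: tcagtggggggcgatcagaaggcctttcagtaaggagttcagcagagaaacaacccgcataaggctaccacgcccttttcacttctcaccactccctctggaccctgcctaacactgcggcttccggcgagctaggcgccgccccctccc

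Depth ran from 16235173 to 83342809 counts per library. CPM below are counts scaled to library size. Tfam was 37.8 to 44.7 CPM in control and 16.0 to 18.9 CPM in Tfam KO islets, and 54.2 to 66.2 and 13.1 to 15.9 CPM in livers. Mfn1 was 67.8 to 88.3 CPM in control and 15.6 to 25.4 CPM in Mfn DKO livers, and Mfn2 was 113.4 to 190.9 and 32.3 to 45.1 CPM. Clec16a was not lower in libraries labelled Clec16a KO (23.4 to 32.9 CPM over both diets, against 20.9 to 31.8 CPM), and the count of a whole gene need not fall where part of it is deleted, so it does not check these labels. Beta-cell markers were present in all islets and hepatocyte markers in all livers. Of 2 libraries that stood apart, the library labelled Clec16a KO on HFD replicate 4 had a mean level of 12 genes of the amino acid response of -0.20 relative to its controls (log2), against 1.47 to 1.83 in the other 4. The Tfam KO liver replicate 3 stood at 1.68, against 3.27 and 4.14. Call counts over the synthetases, the pair ratios and most lists of related genes that rest on either library are given with and without it. Both were picked by their response in these same data, and their cytosolic means were also nearest the controls, at -0.11 and 0.05. Leaving out such a library tends to add calls, so the counts without it are not an independent check. In livers it leaves 2 Tfam KO libraries.

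In control tissue, transcripts of the cytosolic enzymes were the more abundant. Levels per transcript length were taken from the deposited TPM, which corrects counts for transcript length and depth. In control islets of the Tfam experiment the cytosolic members had a median of 35.4 TPM and the mitochondrial members 7.43 TPM, and in control livers 29.0 and 10.3 TPM. Gars led the cytosolic members in islets with 166.4 ± 14.3 TPM (SD, n = 8) and was the eighth of the 37 in livers with 34.95 ± 3.22 TPM (SD, n = 6). The range of Gars did not overlap between these tissues, nor did those of Sars, Lars, Wars and others. The tissues were prepared differently and were not tested against each other, and the share of all genes with ranges apart was not counted. Tarsl2, a second threonyl enzyme of the cytosol, had the lowest level of the cytosolic set in both tissues, with 8.55 ± 1.25 TPM (SD, n = 8) and 4.84 ± 0.369 TPM (SD, n = 6).

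Mars2, the methionyl enzyme of mitochondria, was the lowest member in both, with 1.48 ± 0.337 TPM (SD, n = 8) in islets and 0.995 ± 0.254 TPM (SD, n = 6) in livers. Wars2, for tryptophan, came next, with 3.46 ± 0.689 TPM (SD, n = 8) in islets and 2.16 ± 0.202 TPM (SD, n = 6) in livers. Rars2 and Fars2, for arginine and phenylalanine, had ranges that did not overlap between the tissues. The same held for Aars2, Iars2, Pars2, Sars2, Tars2 and Yars2, so it was not particular to these genes. Rars2 stood at 25.6 ± 2.66 TPM (SD, n = 8) in islets and 12.5 ± 1.49 TPM (SD, n = 6) in livers, and Fars2 at 8.56 ± 0.463 TPM (SD, n = 8) and 15.6 ± 0.807 TPM (SD, n = 6).

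**Figure D1:**
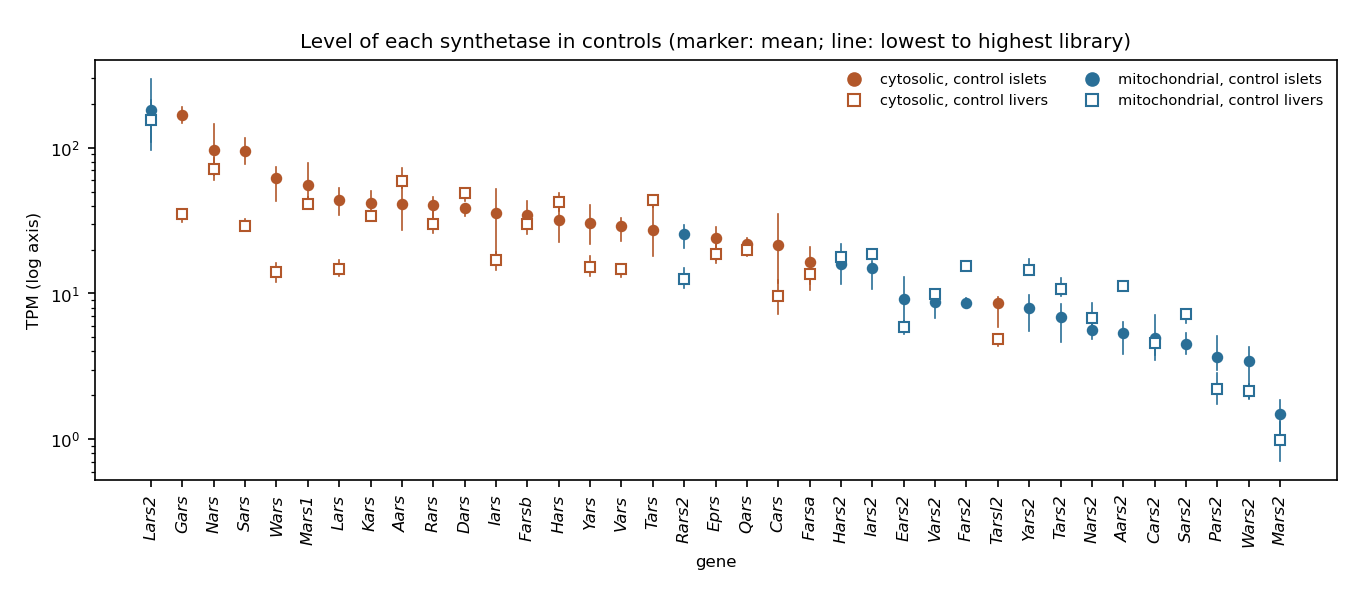
Mean TPM (log axis) of each of the 37 genes in the 8 control libraries of the Tfam islets (filled circles) and the 6 control livers (open squares), with lines from the lowest to the highest library. Cytosolic members (brown) fill most of the upper part of the order and mitochondrial members (blue) the lower part, and Lars2 stands first.

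Lars2, the leucyl enzyme of mitochondria (GRCm38 chromosome 9, 123366927 to 123462666, plus strand), was listed at 182.2 ± 71.3 TPM (SD, n = 8) in islets and 154.0 ± 39.3 TPM (SD, n = 6) in livers, above the mean of every cytosolic member in each. In control islets of the Clec16a experiment it was 66.1 ± 18.5 TPM (SD, n = 10), below Gars, Sars and Nars. In GENCODE M21, 2 of its transcripts share a stretch of 72 bases, at 98.6% identity, with Gm15564, a noncoding gene on another chromosome. The log2 CPM of Lars2 and Gm15564 correlated at r = 0.99 over the 14 Tfam islet libraries, 0.98 over the 19 Clec16a islet libraries and 0.98 over the 13 livers. These points share libraries and depth. Reads may be split between these genes, so the level of Lars2 is uncertain. Its differences between genotypes ran from -0.50 to 0.05 (log2) and passed the test in 0 of the 5 comparisons of a genotype with its control.

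Changes were fitted across all genes in edgeR, by its quasi-likelihood F-test, and a gene was called at a Benjamini-Hochberg adjusted p of 0.05 or less. All 37 members passed the filter on low counts in each experiment. Over 5 comparisons (Tfam KO islets of both sexes, Clec16a KO islets on each diet, and both kinds of liver), 15 of the 21 cytosolic members were called at least once, each of them higher and 0 lower. Over the 14504 genes tested in all 5, 52.6% were called at least once, 33.3% higher and 23.8% lower in at least 1. Of the 16 mitochondrial members 9 were called at least once, near that share, 4 of them higher and 5 lower. Without the 2 libraries that stood apart, 17 cytosolic and 11 mitochondrial members were called at least once, against 66.3% of all genes. The 2 liver comparisons share their controls.

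**Figure D2:**
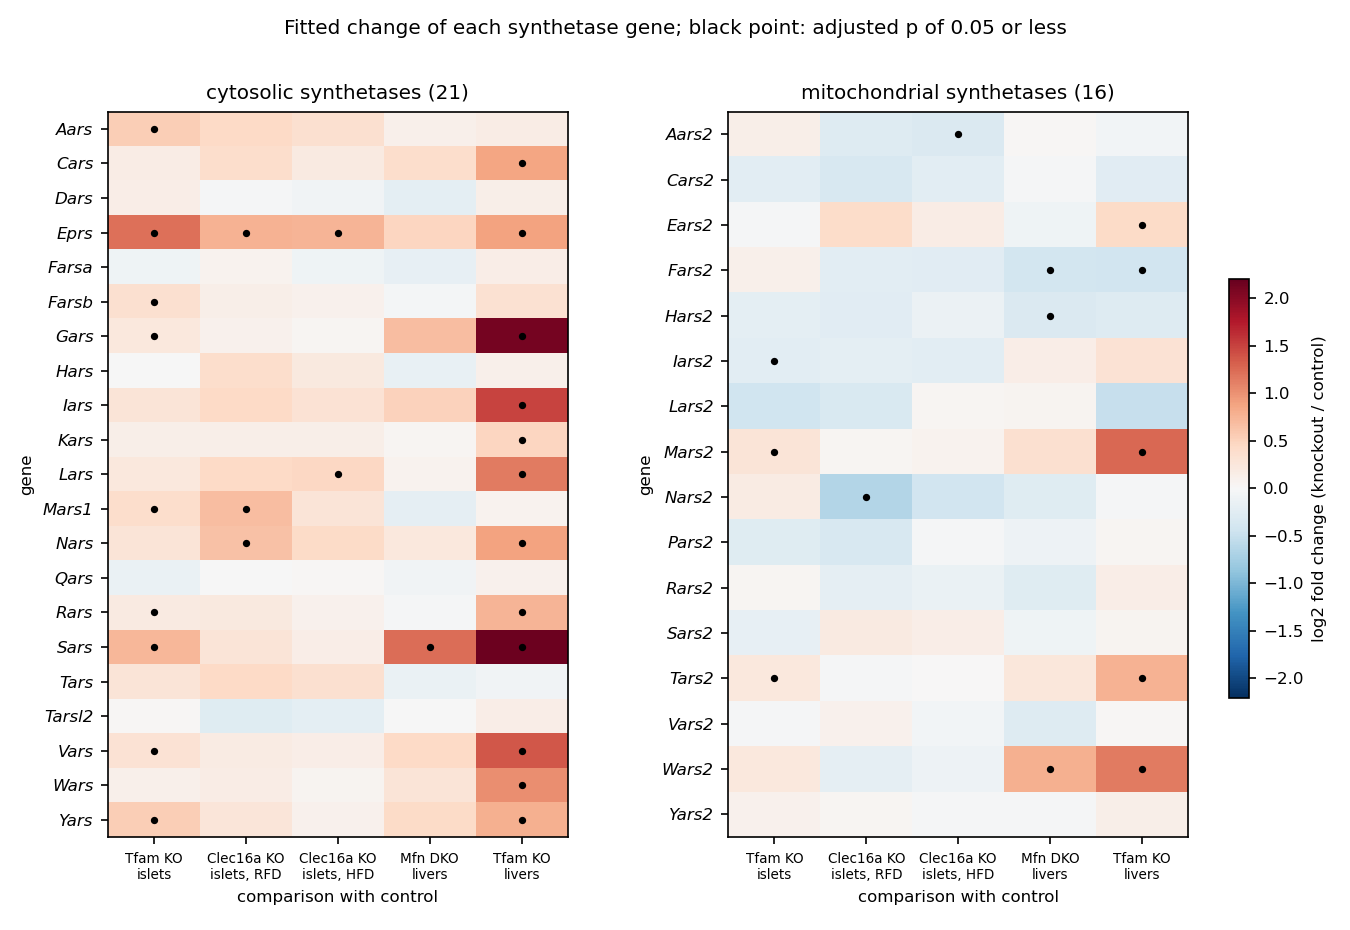
Fitted log2 fold change (colour) of the 21 cytosolic and 16 mitochondrial genes in 5 comparisons of a genotype with its control, with a black point at an adjusted p of 0.05 or less. Points in the cytosolic panel all lie on red (higher) cells, with 12 in the Tfam KO livers, and the mitochondrial panel mixes both directions.

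In Tfam KO islets part of the cytosolic set rose, led by Eprs and Sars, and few mitochondrial enzymes were called. Over both sexes, with sex as a term, 9 of 21 cytosolic members were higher and 0 lower, against 11.6% of all genes called higher and 9.29% called lower. Their median log2 fold change was 0.24, against -0.01 over all genes tested. Eprs, which joins glutamate and proline to their tRNAs in a single protein (chromosome 1, 185363044 to 185428360, plus strand), was 177.2, 204.6 and 230.7 CPM (lowest, median, highest) in 8 controls and 424.3, 468.8 and 533.7 CPM in 6 KO libraries. The groups were far apart, and every female KO library lay above both males. The log2 fold change was 1.21 (SE 0.07, adjusted p 4.82e-09).

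Sars, for serine (chromosome 3, 108424865 to 108445209, minus strand), was 189.3, 228.1 and 268.2 CPM in controls and 364.4, 377.1 and 402.2 CPM in KO, with no overlap. It rose by 0.73 (SE 0.07, adjusted p 2.73e-06). Yars, for tyrosine, was 65.5, 79.7 and 106.1 CPM in controls and 117.9, 124.0 and 127.5 CPM in KO. The KO libraries were closely grouped above all controls, and the log2 fold change was 0.55 (SE 0.10, adjusted p 0.000955). The other 6 that rose were Aars (0.54), Mars1 (0.38), Farsb (0.35), Vars (0.31), Gars (0.23) and Rars (0.19), which charge alanine, methionine, phenylalanine, valine, glycine and arginine. The call of Rars was lost in 5 of 21 alternatives, 4 of them the omission of control female 1, KO female 3, KO female 4 or KO male 2 (adjusted p 0.0524 to 0.061). In the annotation, exons of Aars share 1326 bases with Exosc6 on the same strand, and those of Mars1 share 68 bases with Ddit3 on the other strand. Whether counting used strand is not given, so reads in these overlaps are uncertain.

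Among the mitochondrial enzymes 2 of 16 were higher, a share close to the 11.6% of all genes, and 1 was lower, with a median of 0.01. Tars2, for threonine, was 19.4, 21.6 and 26.2 CPM in controls and 24.4, 26.2 and 28.0 CPM in KO, and the groups overlapped. The log2 fold change was 0.23 (SE 0.07, adjusted p 0.0258), and the call was lost without control female 5, KO female 1, KO female 2 or KO male 1 (adjusted p 0.0507 to 0.0726). Iars2, for isoleucine, was 52.6, 61.5 and 69.8 CPM in controls and 49.3, 52.1 and 59.5 CPM in KO, again overlapping. It fell by 0.23 (SE 0.07, adjusted p 0.0316) and the call was lost in 9 of 21 alternatives, 7 of them the omission of control female 5, control male 2 or 3, KO female 1 or 4, or KO male 1 or 2 (0.0562 to 0.0937). Its exons share 2034 bases with Rab3gap2 on the other strand. In the deposited TPM Iars2 was 10.7 to 16.8 in controls and 14.75 to 18.4 in KO, so it was not lower on that scale. TPM stood higher relative to CPM in these KO libraries for the other members too. Mars2 had 0.29 and an adjusted p of 0.0471, lost in 15 of 21 alternatives. Without KO female 1, KO male 1 or control female 5 the count of mitochondrial calls was 0.

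Beta-cell markers moved with the genotype. All 8 fell, and their summed level was 187733 to 293881 CPM in control and 105143 to 140851 CPM in KO females, and 250318 to 265018 and 127894 to 128577 CPM in males. The 12 acinar markers, of which 0 were called, ran from 1050 to 10116 CPM in control and from 1586 to 4035 CPM in KO females, and from 2219 to 6628 CPM in control and from 3614 to 18279 CPM in KO males. Their median fitted change was -0.96 in females and 1.25 in males. Of 5 fibroblast and stellate-cell markers tested, 2 were higher over both sexes and 3 in males, with a summed level of 27.3 to 63.1 CPM in control and 42.8 to 63.1 CPM in KO females, and 31.5 to 44.9 and 80.04 to 82.6 CPM in males. The part of beta cells and fibroblasts in the changes of the synthetases was not tested, and with the acinar score as a covariate the counts were 9 cytosolic and 3 mitochondrial members, as without it. Of 12 genes of the amino acid response, 12 rose, led by Ddit3 at 2.80 (SE 0.14) and Trib3 at 5.25 (SE 0.30).

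Within females, 9 of 21 cytosolic members were higher (6.67% of all genes were) and 0 of 16 mitochondrial members were called (4.17% of all genes were lower), while 5 of these had an unadjusted p under 0.05 and 1 was called by the Wald test of DESeq2. The 9 were the 9 called over both sexes. Of 21 alternatives in females, the call of Gars was lost in 14, that of Rars in 7 and that of Mars1 in 6. For Gars 11 of these were the omission of 1 library (control female 1, 2, 3 or 5, KO female 2, 3 or 4, control male 2 or 3, or either KO male), with adjusted p values of 0.0517 to 0.152. Rars lost its call without control female 1 or 2 or KO female 2, 3 or 4 (0.0504 to 0.0819), and Mars1 without control female 3 or 5 or KO female 2, 3 or 4 (0.0502 to 0.0869). Within males, with 2 KO libraries, Eprs and Sars were higher (5.24% of all genes were) and 0 mitochondrial members were called (3.69% of all genes were lower), while 2 had an unadjusted p under 0.05 and 1 was called by the Wald test. Eprs was 177.2 to 214.3 CPM in 5 control and 460.2 to 533.7 CPM in 4 KO females, and 203.0 to 230.7 CPM in 3 control males against 424.3 and 437.0 CPM in KO. Its log2 fold changes were 1.32 (SE 0.08, adjusted p 3.03e-08) and 1.01 (SE 0.10, adjusted p 2.02e-05). Sars changed by 0.75 (SE 0.09) and by 0.69 (SE 0.13).

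Farsb, a subunit of the phenylalanyl enzyme, changed by 0.41 (SE 0.08, adjusted p 0.00346) in females and by 0.24 (SE 0.11, adjusted p 0.184) in males. The difference between the sexes was tested as an interaction. It gave 0 called members and 0 called genes (0.0%), with the members Eprs (-0.30, SE 0.13) and Farsa (-0.26, SE 0.11) at an unadjusted p under 0.05 and 0 members by the Wald test. All 21 cytosolic members had a fitted change that was smaller in males, with a median of -0.20 against 0.00 over all genes. The members share libraries, so this is 1 pattern over the same 14 libraries. Markers of other cells also had fitted interactions above 0, with 0 called: 12 of 12 acinar markers (median 2.25, 11 at an unadjusted p under 0.05), and medians of 0.63 for alpha-cell, 0.75 for macrophage and 0.74 for fibroblast markers. Their part in this pattern was not tested.

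**Figure D3:**
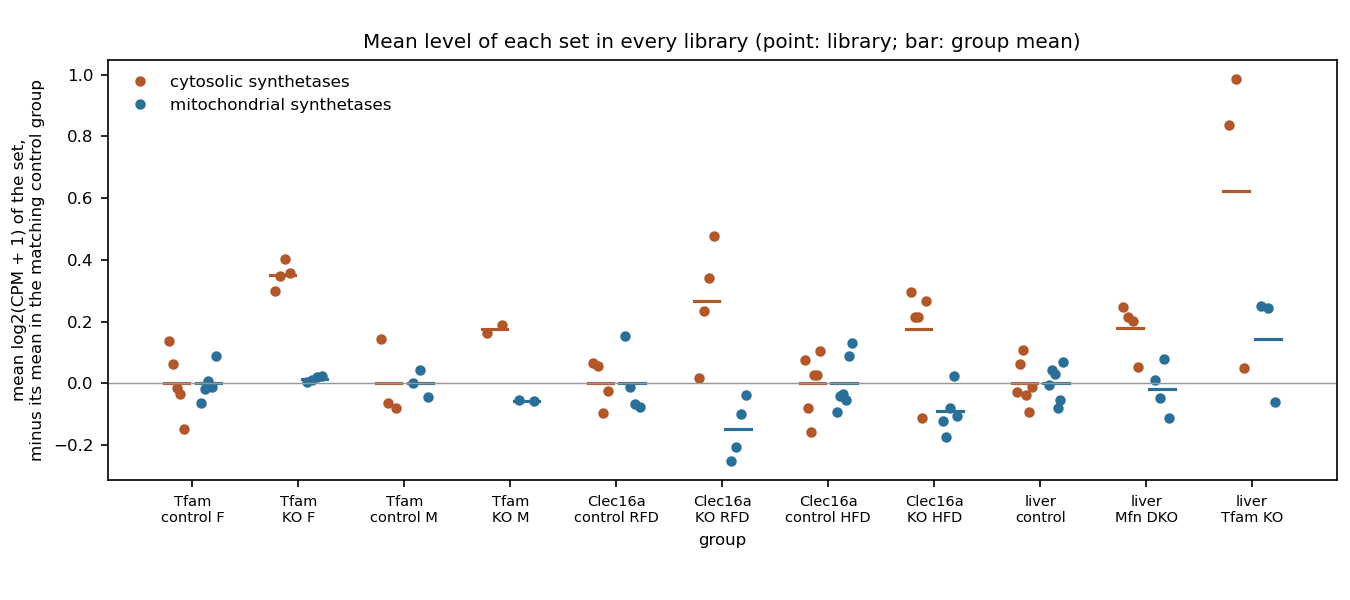
Mean log2(CPM + 1) of the cytosolic (brown) and mitochondrial (blue) members in each of the 46 libraries, relative to the mean of the matching control group, with a bar at each group mean. Brown points of the 4 Tfam KO females lie between 0.30 and 0.40, and 2 of the 3 Tfam KO livers lie at 0.84 and 0.99 while the third lies at 0.05.

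In islets labelled Clec16a KO few synthetases were called. The called cytosolic ones were higher, and the 1 mitochondrial call on each diet, lower, was of a different gene. On RFD, 3 of 21 cytosolic members were higher (3.99% of all genes were) and 1 of 16 mitochondrial members was lower (3.54% of all genes were), which for 16 genes is near that share. The medians were 0.27 and -0.20, against 0.00 over all genes. Eprs was 122.1, 143.4, 145.3 and 174.6 CPM in the 4 controls and 179.7, 248.7, 252.3 and 313.3 CPM in the 4 KO libraries. The groups did not overlap, and the log2 fold change was 0.76 (SE 0.16, adjusted p 0.00868), which held in each of the 27 alternatives. Mars1 was 55.5, 62.5, 65.3 and 68.4 CPM in controls and 80.3, 92.4, 102.2 and 126.6 CPM in KO. It rose by 0.68 (SE 0.16, adjusted p 0.0165), which was 0.0613 without control replicate 3 and 0.0653 without KO replicate 4.

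Nars, for asparagine (chromosome 18, 64499647 to 64516652, minus strand), was 115.9, 122.6, 128.7 and 129.8 CPM in controls and 135.5, 204.1, 216.3 and 224.1 CPM in KO. The lowest KO library lay just above the controls. Nars rose by 0.65 (SE 0.17, adjusted p 0.0249), lost in 7 of 27 alternatives, 6 of them the omission of control replicate 1, 3 or 4 or KO replicate 2, 3 or 4 (adjusted p 0.0572 to 0.0755). Its mitochondrial counterpart Nars2 (chromosome 7, 96951505 to 97064758, plus strand) was 15.1, 16.1, 16.3 and 18.1 CPM in controls and 8.9, 9.8, 10.1 and 13.03 CPM in KO, without overlap. It fell by 0.64 (SE 0.17, adjusted p 0.0284), lost without control replicate 3 or 4 or KO replicate 1, 2 or 3 (adjusted p 0.067 to 0.0871), and its exons share 284 bases with C230038L03Rik on the other strand. Pars2, for proline, was 5.7, 6.3, 6.4 and 7.0 CPM in controls and 4.2, 4.7, 5.2 and 5.8 CPM in KO, with overlap and a log2 fold change of -0.35 (SE 0.14, adjusted p 0.137). The acinar markers lay between 1920.5 and 13164 CPM in KO and 4405.6 and 9781.5 CPM in controls. With the acinar score as a covariate 9 cytosolic members were called. The count was 1 without control replicate 3 and 1 without KO replicate 4, and 6 without KO replicate 1.

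On HFD, 2 of 21 cytosolic members were higher (5.62% of all genes were) and 1 of 16 mitochondrial members was lower (3.95% of all genes were), with medians of 0.14 and -0.08. For sets of this size both counts are not far from those shares. Eprs was 125.5, 144.6 and 162.2 CPM (lowest, median, highest) in 6 controls and 170.0, 245.1, 248.2, 264.3 and 281.2 CPM in 5 KO libraries. KO replicate 4 was the lowest, just above the controls. The log2 fold change was 0.75 (SE 0.14, adjusted p 0.0023). Lars, for leucine, was 76.1, 95.1 and 102.35 CPM in controls and 108.0, 112.0, 125.7, 133.6 and 137.3 CPM in KO, also without overlap. It rose by 0.45 (SE 0.12, adjusted p 0.0276), lost without control replicate 2 or 3 or KO replicate 1, 2 or 3 (adjusted p 0.0591 to 0.0886).

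Tars, the main threonyl enzyme of the cytosol, was 55.9, 63.6 and 70.3 CPM in controls and 84.4, 84.7, 87.9 and 88.8 CPM in 4 KO libraries, with KO replicate 4 at 58.6 CPM among the controls. Its log2 fold change was 0.35 (SE 0.12, adjusted p 0.0665). Aars2, for alanine in mitochondria, was 14.9, 17.6 and 18.9 CPM in controls and 11.4, 12.7, 13.2, 14.9 and 15.9 CPM in KO, with overlap. It fell by 0.33 (SE 0.10, adjusted p 0.0383), lost in 10 of 27 alternatives, 7 of them the omission of control replicate 1, 2, 3 or 5 or KO replicate 1, 2 or 3 (adjusted p 0.0657 to 0.125). Nars2 was 11.1, 16.9 and 21.2 CPM in controls and 10.7, 11.1, 11.3, 13.4 and 15.4 CPM in KO, with a log2 fold change of -0.42 (SE 0.15, adjusted p 0.0817).

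Without KO replicate 4, which lay near the controls, 8 cytosolic members were higher on HFD (10.5% of all genes were) and 3 mitochondrial members, Aars2, Iars2 and Nars2, were lower (9.53% of all genes were). The 8 were Aars, Eprs, Iars, Lars, Mars1, Nars, Sars and Tars, and Tars had 0.45 (SE 0.11, adjusted p 0.00479). In the same fit 7 cytosolic members were higher on RFD (6.27% of all genes were): Aars, Eprs, Iars, Mars1, Nars, Sars and Tars. Within the 2 sequencing lanes recorded for these islets, the difference in log2 CPM of Eprs on HFD was 1.02 on lane 7 (2 KO and 3 control libraries) and 0.50 on lane 8 (3 and 3, with KO replicate 4), against 0.73 over all. On RFD it was 0.61 on lane 7 (3 and 2) and 0.90 on lane 8 (1 and 2), against 0.74 over all.

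Endothelial markers also moved in these islets: 4 of 5 were higher on each diet, with a summed level of 275.5 to 305.9 CPM in controls and 475.5 to 591.2 CPM in KO on RFD. On HFD it was 259.5 to 355.2 CPM and 304.7 to 562.8 CPM, and 2 of 8 beta-cell markers were lower on each diet. Of 5 fibroblast and stellate-cell markers tested, 2 were higher on RFD, with a summed level of 40.5 to 52.6 CPM in controls and 53.6 to 95.4 CPM in KO. On HFD 4 of 5 were higher, at 36.5 to 67.4 CPM and 59.5 to 107.4 CPM. The part of these cells in the changes of Eprs, Nars and Nars2 was not tested. Of the 12 amino acid response genes 10 rose on each diet, and the smallest adjusted p was that of Psat1 on RFD, at 2.39 (SE 0.42), and of Trib3 on HFD, at 3.57 (SE 0.51). Between HFD and RFD, 0 members were called in controls (0.0406% of all genes were), with 2 at an unadjusted p under 0.05, and 0 in KO (0.0116% of all genes were), with 0 at that level. The interaction of genotype and diet called 0 members and 0.0% of all genes, with 0 at that level. The Wald test called 0 members in each of these 3.

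**Figure D4:**
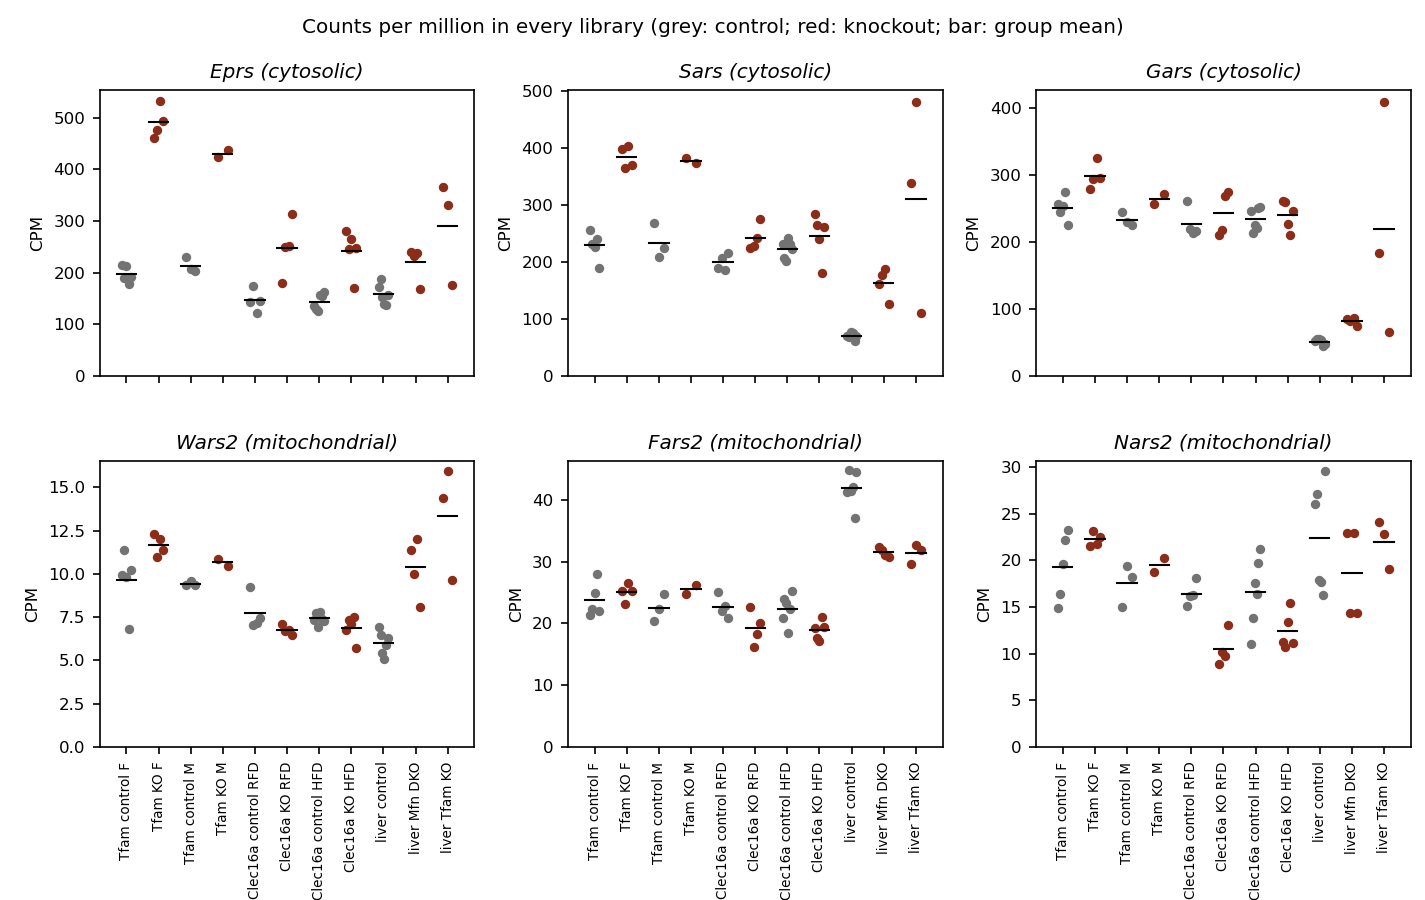
CPM of 6 members in each library of the 11 groups (grey for controls, red for knockouts, bar at the group mean). The Eprs group mean is above that of its control in each KO group, Gars and Sars reach 408.5 and 480.0 CPM in a Tfam KO liver, and the Nars2 group means of 10.5 and 12.4 CPM in Clec16a KO islets lie below the other 9.

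In Mfn DKO livers few synthetases were called, and the mitochondrial calls went in both directions. Among the cytosolic members 1 of 21 was higher, near the 5.23% of all genes, and among the mitochondrial members 1 of 16 was higher and 2 were lower (4.64% of all genes were), with medians of 0.08 and -0.06 against 0.02 over all genes. Sars was 60.8, 69.2 and 76.3 CPM in 6 controls and 126.4, 160.3, 176.7 and 187.3 CPM in 4 Mfn DKO livers, with no overlap. It rose by 1.22 (SE 0.28, adjusted p 0.0181), which was 0.0531 without Mfn DKO replicate 2 and 0.0526 without replicate 3. Yars was 38.3, 41.3 and 50.4 CPM in controls and 48.1, 54.4, 56.2 and 65.9 CPM in Mfn DKO, and Eprs was 137.8, 154.8 and 188.1 CPM against 168.0, 232.6, 237.9 and 240.7 CPM. Each overlapped in its lowest Mfn DKO library, with 0.42 (SE 0.16, adjusted p 0.105) and 0.48 (SE 0.19, adjusted p 0.119). Gars, Iars, Vars and Wars were not called either, though their Mfn DKO libraries lay above all controls. The share of all genes with ranges apart was not counted, so this is not a result about the set. Gars was 43.8 to 55.5 CPM in controls and 74.2 to 85.9 CPM in Mfn DKO, and Iars 37.4 to 47.6 and 48.4 to 71.1 CPM. Vars was 35.8 to 40.5 and 45.4 to 60.8 CPM, and Wars 18.7 to 24.7 and 26.3 to 28.5 CPM. The estimate of spread is shared with the Tfam KO livers, and without Tfam KO replicate 3, 6 cytosolic members were called higher.

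Wars2 (chromosome 3, 99141068 to 99239186, plus strand) was 5.1, 6.1 and 6.9 CPM in controls and 8.07, 10.01, 11.4 and 12.04 CPM in Mfn DKO livers. These did not overlap, and Wars2 rose by 0.79 (SE 0.16, adjusted p 0.0105). Fars2, for phenylalanine in mitochondria (chromosome 13, 36117412 to 36726280, plus strand), was 37.04, 41.8 and 44.8 CPM in controls and 30.8, 31.1, 31.9 and 32.4 CPM in Mfn DKO, a narrow group below all controls. It fell by 0.41 (SE 0.08, adjusted p 0.00707). Its exons share 501 bases with Nrn1 on the other strand. In the deposited TPM Fars2 was 14.6 to 16.7 in controls and 14.04 to 14.7 in Mfn DKO, and the groups touched. Hars2, for histidine, was called lower at -0.32 (SE 0.09, adjusted p 0.0448), lost in 10 of 20 alternatives, 8 of them the omission of control replicate 1, 2, 3, 4 or 6 or Mfn DKO replicate 1, 2 or 4 (adjusted p 0.057 to 0.133). Its exons share 195 bases with Hars, which lies beside it on the other strand and had -0.17 (SE 0.11). In the deposited TPM Hars2 was 16.9 to 19.4 in controls and 15.9 to 20.05 in Mfn DKO, with overlap. TPM stood higher relative to CPM in Mfn DKO than in control livers for the other members too.

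In Tfam KO livers, of 21 cytosolic members 12 were higher (18.1% of all genes were) and 0 lower, with a median of 0.75 against 0.03 over all genes. Sars was 110.3, 338.1 and 480.0 CPM in the 3 Tfam KO livers, against 60.8, 69.2 and 76.3 CPM in controls. It rose by 2.15 (SE 0.30, adjusted p 0.000838). Gars (chromosome 6, 55038007 to 55079500, plus strand) was 43.8, 52.6 and 55.5 CPM in controls and 65.8, 182.7 and 408.5 CPM in Tfam KO. It rose by 2.10 (SE 0.35, adjusted p 0.00178). In both genes the groups did not overlap, and Tfam KO replicate 3 was the lowest of its group.

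Iars, for isoleucine, was 37.4, 40.9 and 47.6 CPM in controls and 50.2, 137.5 and 162.0 CPM in Tfam KO, with 1.49 (SE 0.25, adjusted p 0.0021). The other 9 were Vars (1.37), Lars (1.14), Wars (1.02), Nars (0.89), Eprs (0.88), Cars (0.87), Yars (0.78), Rars (0.75) and Kars (0.48). Without Tfam KO replicate 2 the calls of Cars, Lars, Nars and Rars were lost, with adjusted p values of 0.079, 0.0678, 0.0654 and 0.115. The enzymes that did not pass were Aars (0.16), Dars (0.13), Farsa (0.15), Farsb (0.33), Hars (0.11), Mars1 (0.07), Qars (0.10), Tars (-0.08) and Tarsl2 (0.15). By the structural classes of synthetases, 8 of 10 cytosolic class I enzymes and 4 of 11 class II enzymes were called, against the 18.1% of all genes. Without Tfam KO replicate 3 these were 8 of 10 and 6 of 11. Eprs, whose glutamyl part is of class I and whose prolyl part is of class II, was counted in class I. The difference between the classes was not tested. In Tfam KO islets the called enzymes were of both classes. Eprs, Mars1, Rars, Vars and Yars are of class I, and Aars, Farsb, Gars and Sars of class II.

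Among the mitochondrial enzymes of Tfam KO livers 4 of 16 were higher, not far from the 18.1% of all genes, and 1 was lower (11.3% of all genes were), with a median of 0.06. Wars2 was 9.6, 14.4 and 16.0 CPM in Tfam KO, above the 5.1 to 6.9 CPM of all controls, and rose by 1.15 (SE 0.17, adjusted p 0.00105). Mars2 was 3.6, 5.1 and 6.7 CPM in controls and 7.0, 15.1 and 15.5 CPM in Tfam KO. The lowest Tfam KO library lay just above the controls, and the log2 fold change was 1.26 (SE 0.24, adjusted p 0.00345). Tars2 (0.76) and Ears2 (0.42), for threonine and glutamate, were also higher, and the call of Ears2 was lost without Tfam KO replicate 2 (adjusted p 0.0668). Fars2 was 29.7, 31.9 and 32.7 CPM in Tfam KO, below every control, and fell by 0.41 (SE 0.08, adjusted p 0.00435). In the deposited TPM, which are scaled otherwise, it was 14.9, 16.1 and 23.7 in Tfam KO and 14.6 to 16.7 in controls. On that scale Fars2 was not lower, so its direction depends on the scaling. This was not particular to Fars2, since TPM stood higher relative to CPM for the other members of these libraries too. Gars, for one, was 545.0 TPM and 408.5 CPM in Tfam KO replicate 2, against 33.6 TPM and 51.4 CPM in control replicate 1.

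Without Tfam KO replicate 3, 14 cytosolic members were higher (22.8% of all genes were), adding Farsa and Farsb, and the median was 0.99. Of the mitochondrial members 5 were then higher and 3 were lower (19% of all genes were), adding Iars2 above and Cars2 and Hars2 below. Sars was at 2.53 (SE 0.15), Gars at 2.51 (SE 0.20) and Wars2 at 1.31 (SE 0.16). In the Mfn DKO comparison, which shares its estimate of spread, 6 cytosolic members were then called higher (8.04% of all genes were): Eprs, Gars, Iars, Sars, Vars and Yars.

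Hepatocyte markers moved with the genotype in these livers. Of 8, 3 were called lower in Tfam KO, while in Mfn DKO 1 was called higher and 0 lower, with 3 fitted above 0 and 5 below. The summed level of the 8 was 93165 to 134134 CPM in controls, 79999 to 96423 CPM in Mfn DKO and 22579 to 93695 CPM in Tfam KO. Of 6 fibroblast and stellate-cell markers 2 were higher in Mfn DKO and 1 in Tfam KO. The part of these cells in the rise of Sars and Gars was not tested. Xist RNA, which marks female cells, was over 100 CPM in 3 of 6 control, 2 of 4 Mfn DKO and 2 of 3 Tfam KO livers. In these Sars was 60.8 to 76.3 CPM in controls, 126.4 and 176.7 CPM in Mfn DKO and 110.3 and 480.0 CPM in Tfam KO, and in the others it was 67.6 to 69.4, 160.3 and 187.3, and 338.1 CPM. Of the 12 amino acid response genes, 8 rose in Mfn DKO and 11 in Tfam KO livers, with Trib3 at 4.22 (SE 0.34) and 5.43 (SE 0.36).

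The 2 liver genotypes were also compared directly. Of 37 members 0 were called, while 0.294% of all genes were, with 11 cytosolic and 6 mitochondrial members at an unadjusted p under 0.05 and 7 and 2 members called by the Wald test. All 21 cytosolic members had a higher fitted level in Tfam KO, with a median of 0.40 against 0.01 over all genes. Kars was 65.8, 70.5, 73.9 and 79.8 CPM in Mfn DKO and 83.6, 104.6 and 106.2 CPM in Tfam KO, and Rars was 41.4, 43.3, 44.8 and 46.8 CPM against 45.2, 74.5 and 107.4 CPM. Kars did not overlap and Rars did in 1 library, with log2 fold changes of 0.44 (SE 0.11, adjusted p 0.0998) and 0.78 (SE 0.21, adjusted p 0.101). Gars had 1.43 (SE 0.39, adjusted p 0.101). Ears2 was 12.5, 12.5, 13.9 and 14.3 CPM against 16.1, 19.5 and 21.9 CPM, with 0.53 (SE 0.11, adjusted p 0.0784), and Mars2 had 0.90 (SE 0.27, adjusted p 0.112). Without Tfam KO replicate 3, 16 cytosolic members and 6 mitochondrial members were called higher (13.9% of all genes were) and 1 mitochondrial member, Cars2, lower.

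Islets and livers labelled Tfam KO share no libraries. Of the 12 cytosolic members called in livers and the 9 called in islets, 6 were called in both: Eprs, Gars, Rars, Sars, Vars and Yars, which is 6 of 12 and 6 of 9. Over all genes tested in both tissues 839 were called higher in both, which is 28% of those higher in livers and 41.2% of those higher in islets. Calls in each tissue were also more frequent in the set, with 12 of 21 in livers and 9 of 21 in islets. Over all genes 2998 and 2038 of 15565 were called higher. A set with more calls in each tissue shares more of them by that alone, so these shares are not a result about sharing. Without Tfam KO liver replicate 3, 7 cytosolic members were shared, 7 of 14 and 7 of 9, and over all genes 25.5% and 48.1%. The order of sizes was unlike: Eprs led in islets at 1.21 and stood at 0.88 in livers, while Gars was 0.23 in islets and 2.10 in livers. The difference between tissues was not tested. Aars, Farsb and Mars1 were called in islets and not in livers, and Cars, Iars, Kars, Lars, Nars and Wars in livers and not in islets.

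Cytosolic and mitochondrial enzymes were then paired by amino acid, which gave 17 pairs, as the log2 ratio of their CPM in each library. The ratio moved toward the cytosolic enzyme in 15 of 17 pairs in Tfam KO islets, 17 of 17 in Clec16a KO islets on RFD and 17 of 17 on HFD, and 14 of 17 in each liver comparison. The median shifts were 0.34, 0.46, 0.34, 0.35 in Mfn DKO livers and 0.63 in Tfam KO livers. Without Clec16a KO on HFD replicate 4 the shift on HFD was 0.43, in 17 of 17 pairs, and without Tfam KO replicate 3 that in Tfam KO livers was 0.81, in 14 of 17. Pairs are not independent, since Eprs, Fars2 and the libraries are shared, and no test was made of these counts. Any difference above 0 was counted. The smallest in Clec16a KO islets were 0.09 on RFD (Vars and Vars2) and 0.002 on HFD (Sars and Sars2).

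The pairs differed in which partner moved. For asparagine on RFD, Nars rose and Nars2 fell, so the ratio gained 1.29, the most of any pair there. For serine in Tfam KO livers Sars rose while Sars2 had a log2 fold change of 0.07, and the ratio gained 1.85, or 2.38 without Tfam KO replicate 3. In 3 pairs of Tfam KO livers the ratio moved toward the mitochondrial enzyme. For methionine in Tfam KO livers Mars2 rose by 1.26 while Mars1 was at 0.07, and the ratio changed by -1.16, or by -1.33 without replicate 3. For threonine Tars2 rose by 0.76 while Tars was at -0.08, and for tryptophan Wars2 and Wars both rose, by 1.15 and 1.02.

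**Figure D5:**
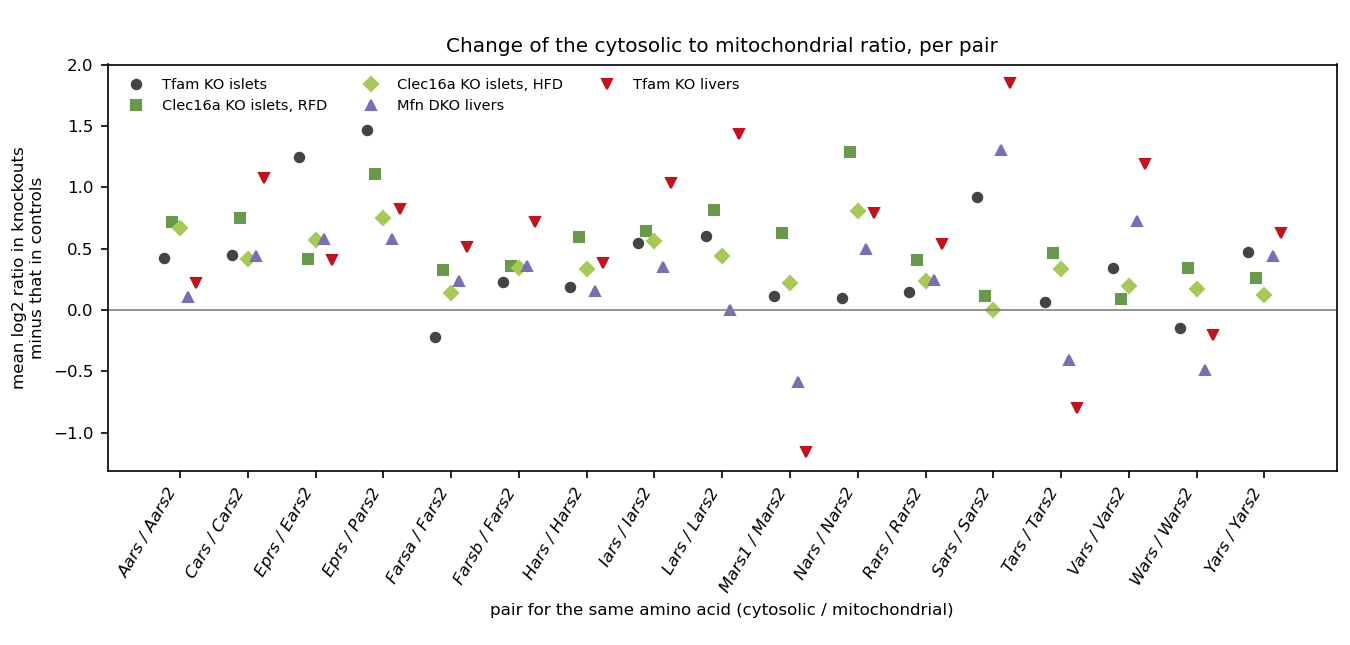
Change of the mean log2 ratio of cytosolic to mitochondrial enzyme between each genotype and its control, for 17 pairs and 5 comparisons. Most symbols lie above 0, and in Tfam KO livers those below 0 are the pairs of Mars1, Tars and Wars.

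Genes that work with the synthetases were counted from lists. The shares of all genes called higher were 11.6% in Tfam KO islets, 3.99% and 5.62% in Clec16a KO islets on RFD and HFD, 5.23% in Mfn DKO livers and 18.1% in Tfam KO livers, and a count of 1 in lists of this size is not a result about the list. Of 3 scaffold proteins of the multisynthetase complex (Aimp1, Aimp2 and Eef1e1), 2 were higher in Tfam KO islets, 3 in Tfam KO livers and 0 in the other 3 comparisons of a genotype with its control. Aimp1 rose by 0.42 (SE 0.07) in Tfam KO islets, and Eef1e1 by 1.03 (SE 0.21) in Tfam KO livers. Of the 8 synthetases of that complex, 3 were higher in Tfam KO islets, 2 and 2 in Clec16a KO islets, 0 in Mfn DKO livers and 5 in Tfam KO livers. Without Clec16a KO on HFD replicate 4 these were 3 on RFD and 4 on HFD, and 1 scaffold protein, Aimp2, was higher on RFD. Of 8 elongation factors and regulators of the cytosol, 4 were higher in Tfam KO islets, with Eef1a1 at 0.45 (SE 0.07). In Tfam KO livers 6 of the 7 tested were higher, with Eef1b2 at 1.59 (SE 0.22), and 1 was lower. Without Tfam KO replicate 3 the counts in Tfam KO livers were the same for the scaffold proteins, the complex and the elongation factors, and in Mfn DKO livers 2 synthetases of the complex were higher.

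Of 10 mitochondrial translation factors, 1 was higher in Tfam KO islets (Gfm1, an elongation factor, 0.17, SE 0.05), 1 was lower in Mfn DKO livers (Mtrf1, a release factor, -0.52, SE 0.15) and 0 were called in the other 3. Of 11 genes that process mitochondrial tRNAs, 5 were higher and 1 was lower in Tfam KO livers, where Gtpbp3 was at 0.45 (SE 0.13) and Hsd17b10 at -0.82 (SE 0.21). Without Tfam KO replicate 3, 6 were higher, and without Clec16a KO on HFD replicate 4, 1 translation factor (Guf1) and 1 processing gene (Trit1) were lower on HFD. In Tfam KO islets 0 were higher and 1 was lower, Trmu at -0.30 (SE 0.07). Mitochondria make glutaminyl-tRNA by transamidation, and of 4 genes of this route and of formylation 1 rose in Tfam KO islets (Gatc, 0.17, SE 0.05) and 1 in Tfam KO livers (Qrsl1, 0.75, SE 0.22). Of 22 mitochondrial tRNA genes, 5 had enough counts to be tested in Tfam islets and 4 in livers, and these 5 and 4 were lower in Tfam KO (5 of 5 tested in livers without replicate 3). Among them mt-Tl1 had -3.66 (SE 0.57) in islets and mt-Tp -4.30 (SE 0.59) in livers. Among genes that proofread charged tRNAs, Dtd2 was lower in Mfn DKO (-0.49, SE 0.09) and Tfam KO livers (-0.51, SE 0.10). In the selenocysteine route, Sepsecs was lower (-0.52, SE 0.09) and Sephs2 higher (0.45, SE 0.07) in Tfam KO islets. Sephs2 was lower in Tfam KO livers (-0.71, SE 0.24). For these lists, values without a library that stood apart are not given.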

How the data were processed

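The members, lists and tests were chosen with earlier results of these data known. The deposited tables hold a raw count, a CPM (counts scaled to library size) and a TPM value for 55487 genes in each of 46 libraries, per the file headers. The tools named are STAR 2.6.1b, RSEM 1.3.1, featureCounts and DESeq2 with GRCm38, per the submitters' processing notes, and which tool made which column, and whether strand was used, is not given in the sources used here. Each experiment was fitted alone on the counts as deposited with edgeR 4.0.16 in R 4.3.3 (TMM scaling, filterByExpr, quasi-likelihood F-test), with sex as a term in the Tfam islets of both sexes. P-values were adjusted by Benjamini-Hochberg over all genes tested. CPM printed here were recomputed on TMM-scaled library sizes, and TPM are the deposited values. Samples were grouped by their labels, which call replicates biological and give no more, so p-values measure the spread between these samples. Each library's total, 16235173 to 83342809 counts, limits precision most in the Clec16a islets. All 37 members may be named, with values by library for the 3 cytosolic and 2 mitochondrial members of smallest adjusted p per genotype comparison, any called against the direction of its set, and at most 2 genes per list. The fits were also run on simulated counts with known changes and the same dispersion for every gene. That setting holds no library that stands apart from its group, so it does not test the fits for such groups. Alternatives were other size factors, other count filters, the Wald test of DESeq2 1.42.0, covariates, fits of 2 groups alone, a replicate block and leaving out each library.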

Additional observations from a re-analysis of the deposited data

Results flagged for a closer look

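In groups of 4 to 10 libraries, 114 sets of values were screened for 1 library with a wide gap to all others (Dixon's 95% criterion), and 7 were found. Chance gives about 1 in 20 such groups. The library labelled Clec16a KO on HFD replicate 4 accounted for 3. In it Nars was 130.1 CPM against 213.0 to 228.2 CPM in the other 4, Tars was 58.6 CPM against 84.4 to 88.8 CPM, and the mean log2(CPM + 1) of the cytosolic members was 6.19 against 6.52 to 6.60. Control liver replicate 3 had Rars at 56.1 CPM against 40.7 to 46.3 CPM, and Yars at 50.4 CPM against 38.3 to 42.7 CPM. Control liver replicate 2 had Tars2 at 41.3 CPM against 31.7 to 35.1 CPM. Mfn DKO liver replicate 4 had Eprs at 168.0 CPM against 232.6 to 240.7 CPM.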

How the results depend on the processing

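Alternatives were followed for the called members and those of smallest adjusted p in each comparison, and no called change among these reversed its direction. Of the counts of called members, the following moved by over 1.5 times, and the cause was not tested. With no filter on low counts, 1 mitochondrial member was called in Tfam KO females, 1 over both sexes and 0 in Clec16a KO islets on HFD. The Wald test of DESeq2 called 1 mitochondrial member in each sex, 6 cytosolic members on RFD and 4 on HFD, and 7 cytosolic and 2 mitochondrial members between the liver genotypes. With the acinar score 9 cytosolic members were called on RFD and 5 on HFD, and with lane 2 mitochondrial members on HFD. Fits of the 2 groups alone called 5 cytosolic members on RFD, 0 mitochondrial on HFD and 7 cytosolic in Mfn DKO livers.

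Replicate numbers did not pair the samples (median correlation -0.02 in Clec16a islets, 0.07 in Tfam islets and 0.09 in livers). With a replicate block, 0 mitochondrial members were called on HFD, 0 cytosolic and 0 mitochondrial in Mfn DKO livers, and 0 cytosolic and 1 mitochondrial in Tfam KO livers.

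Leaving out 1 library gave 0 to 2 mitochondrial calls in Tfam KO females, 2 to 4 cytosolic and 0 to 1 mitochondrial in males, and 0 to 4 mitochondrial over both sexes. It gave 1 to 7 cytosolic and 0 to 1 mitochondrial on RFD, and 1 to 8 and 0 to 3 on HFD. In livers it gave 0 to 6 cytosolic in Mfn DKO, 4 to 8 mitochondrial in Tfam KO, and 0 to 16 cytosolic and 0 to 7 mitochondrial between the genotypes. The highest counts on each diet and between liver genotypes came without Clec16a KO on HFD replicate 4 and without Tfam KO replicate 3.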
